A study of Mus musculus with 17 samples.

Results

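The genes described here are 38 DNA replication and S-phase genes, followed in whole mouse uterus after estradiol (E2) in arrays labelled Egr1 knockout (KO) or wild type (WT). They were chosen by name, for their function, with earlier results of these data known, so the choice was not blind to their values. Each was read from the brightest probe that carries its symbol. All 38 had a probe and are among the 14737 genes tested. They fall into 14 MCM and licensing genes, 12 polymerase and clamp genes, 5 nucleotide supply genes and 7 E2F and chromatin genes. Total RNA from uterine tissue was measured with Illumina MouseWG-6 v2 arrays, and the 17 arrays make 8 groups, KO and WT before E2 (0 h) and at 3, 6 or 24 h. There are 3 arrays of WT 3 h and 2 of every other group. No label ties the arrays of a group to separate animals, so the p-values cover the spread between these arrays alone, and that spread may be technical. Not given in the sources used here are strain, age, E2 dose, ovariectomy, vehicle and the design of the Egr1 allele.

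DNA is copied in an ordered sequence. The origin recognition complex, Cdc6 and Cdt1 load the MCM helicase ring on origins in G1, Cdc45 and the GINS complex turn it into the active helicase, and primase, the DNA polymerases, the sliding clamp PCNA and its loader RFC then copy both strands while ribonucleotide reductase, thymidylate synthase and thymidine kinase supply the building blocks. Transcription of most of these genes is switched on together at the G1/S boundary by E2F factors, once cyclin-dependent kinases release them from RB proteins. In the mouse uterus, E2 is known to drive the epithelium through a synchronous round of DNA synthesis, with stromal signals taking part.

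E2F factors bind a short word rich in G and C behind a run of T. The 4 spellings TTTCCCGC, TTTCGCGC, TTTGCCGC and TTTGGCGC were searched on both strands of the 250 bases before the annotated start in RefSeq's promoter table for GRCm38.p6. Of the 38 genes, 32 have an entry, with 37 promoters in all. Of these 37 starts, 22 equal the RefSeq gene boundary, so some stretches may not lie before the gene's first base. A gene counted here as without a word may thus hold one outside the searched stretch. At least 1 of the words is held by 7 of these 32 genes (21.9%), against 3.3% of 11820 tested genes with an entry. That share is not particular to the members. Of the other replication genes listed further below, 14 of 52 with an entry (26.9%) hold a word, and of the mitosis genes 1 of 19 (5.3%). The stretches around the members' words are shown because such words were more frequent here than among the tested genes. They run 5′ to 3′ on the gene's strand, with the word in capitals.
Mcm5 (chr8:75109332-75109391, plus strand): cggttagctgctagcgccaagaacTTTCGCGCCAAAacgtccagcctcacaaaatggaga
Mcm6 (chr1:128359740-128359820, minus strand): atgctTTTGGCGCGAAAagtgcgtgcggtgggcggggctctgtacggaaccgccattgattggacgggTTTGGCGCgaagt
Mcm7 (chr5:138172015-138172074, minus strand): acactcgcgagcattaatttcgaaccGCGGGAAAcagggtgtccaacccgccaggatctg
Cdc6 (chr11:98907987-98908046, plus strand): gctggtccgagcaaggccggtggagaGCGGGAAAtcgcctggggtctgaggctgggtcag
Orc1 (chr4:108579394-108579453, plus strand): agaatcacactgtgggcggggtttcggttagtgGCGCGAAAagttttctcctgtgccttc
Rfc3 (chr5:151651209-151651268, minus strand): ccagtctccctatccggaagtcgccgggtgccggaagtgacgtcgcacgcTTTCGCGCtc
Uhrf1 (chr17:56304102-56304161, plus strand): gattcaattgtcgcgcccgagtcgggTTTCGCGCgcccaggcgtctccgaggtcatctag

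In Mcm5 and in the distal Mcm6 match, words on opposite strands overlap and the capitals run across both. Mcm6 holds 3 matches, Mcm5 holds 2, and the others hold 1 each. The shorter core, the same 4 words without their leading T, lies inside the longer words and was added after those matches had been seen. It is present in 14 of the 32 genes (43.8%) and in 14.1% of the tested genes. Among the other replication genes it is present in 38.5%, and among the mitosis genes in 5.3%. The consensus palindromic estrogen response element, with any letters in its spacer, was found in 0 of the 32. It was found in only 2 of 11820 tested genes, so its absence here cannot set the members apart. The shorter estrogen word AGGTCA was present in 12.5% of the 32 genes and in 13.7% of the tested genes. The EGR1 word GCGTGGGCG was found in 1 of the 32 (3.1%, against 1.1% of tested genes). CCAAT and the SP1 word GGGCGG were present in 56.2% and 65.6% of the 32, against 39.8% and 56.1% of the tested genes. Among the other replication genes these shares were 51.9% and 75.0%. TTTGAA or TTCGAA was present in 15.6% of the 32 and in 15.9% of the tested genes. The members' promoters are also richer in G and C, with a median of 59.6% against 52.4% over all 32851 promoters. Of all these words, those of E2F, EGR1 and SP1 hold runs of G and C. A match is a run of letters, not a shown binding site.

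Egr1 itself did not separate the labels as a deletion of its probed part would. Its probe read 13.48 and 13.63 in the KO arrays at 0 h and 12.24 and 12.51 in the WT arrays, and at 24 h 13.51 and 13.27 in KO and 11.39 and 12.09 in WT, all as log2 values. The probe's place relative to the deleted part is unknown here, so it does not check the labels, and every KO and WT direction below is between arrays labelled so. Of 9 uterine markers 7 were measured. Over the 17 arrays the log2 values ran from 10.12 to 11.59 for Esr1, the estrogen receptor, from 9.11 to 10.91 for Pgr, from 9.61 to 11.65 for Wnt7a, up to 13.22 for Hoxd10, from 8.46 to 9.36 for Hoxa11 and from 8.36 to 8.77 for Hand2, all above the array median of 8.2. Foxa2, a gland marker, ran from 8.02 to 8.42 and so lay below that median on some arrays, and Hoxa10 and Msx2 were not among the genes tested. WT 0 h replicate 1 stands apart from its partner in these genes: it lay above replicate 2 for 37 of 38, with a median log2 difference of 0.50 and a largest of 1.81 for Uhrf1, while over all genes tested 46.4% were higher on it, with a median of -0.01. That gap is the widest of the groups of 2 arrays. WT 24 h replicate 1 was also higher than replicate 2 for 37 genes (median 0.20), KO 24 h replicate 1 for 36 (0.12) and KO 6 h replicate 1 for 34 (0.20), while KO 3 h replicate 1 was lower than its partner for all but 6 (median -0.25). Counts of WT changes from 0 h are given with and without each WT 0 h array. In whole tissue, a change in the number of cells that make an RNA and a change in RNA per cell cannot be told apart.

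The course over time had its main step between 6 and 24 h. KO 24 h was the group with the highest mean for 38 of the 38 genes, and WT 24 h was the second highest for 36, the others being Pold1 (second highest at WT 0 h) and Orc6 (at WT 3 h). The lowest group was KO 0 h for 16 genes, KO 6 h for 13 and KO 3 h for 7. Averaged over the 38 genes and set relative to the mean of all arrays, the log2 level was 0.32 and -0.27 on the WT 0 h arrays, between -0.29 and -0.17 on the 5 WT arrays at 3 and 6 h, and 0.69 and 0.46 at WT 24 h. On the KO arrays the same average was -0.43 and -0.37 at 0 h, between -0.53 and -0.27 at 3 and 6 h, and 1.21 and 1.09 at 24 h. The KO arrays thus ran from lower levels before E2 to higher levels at 24 h than the WT arrays.

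**Figure D1:**
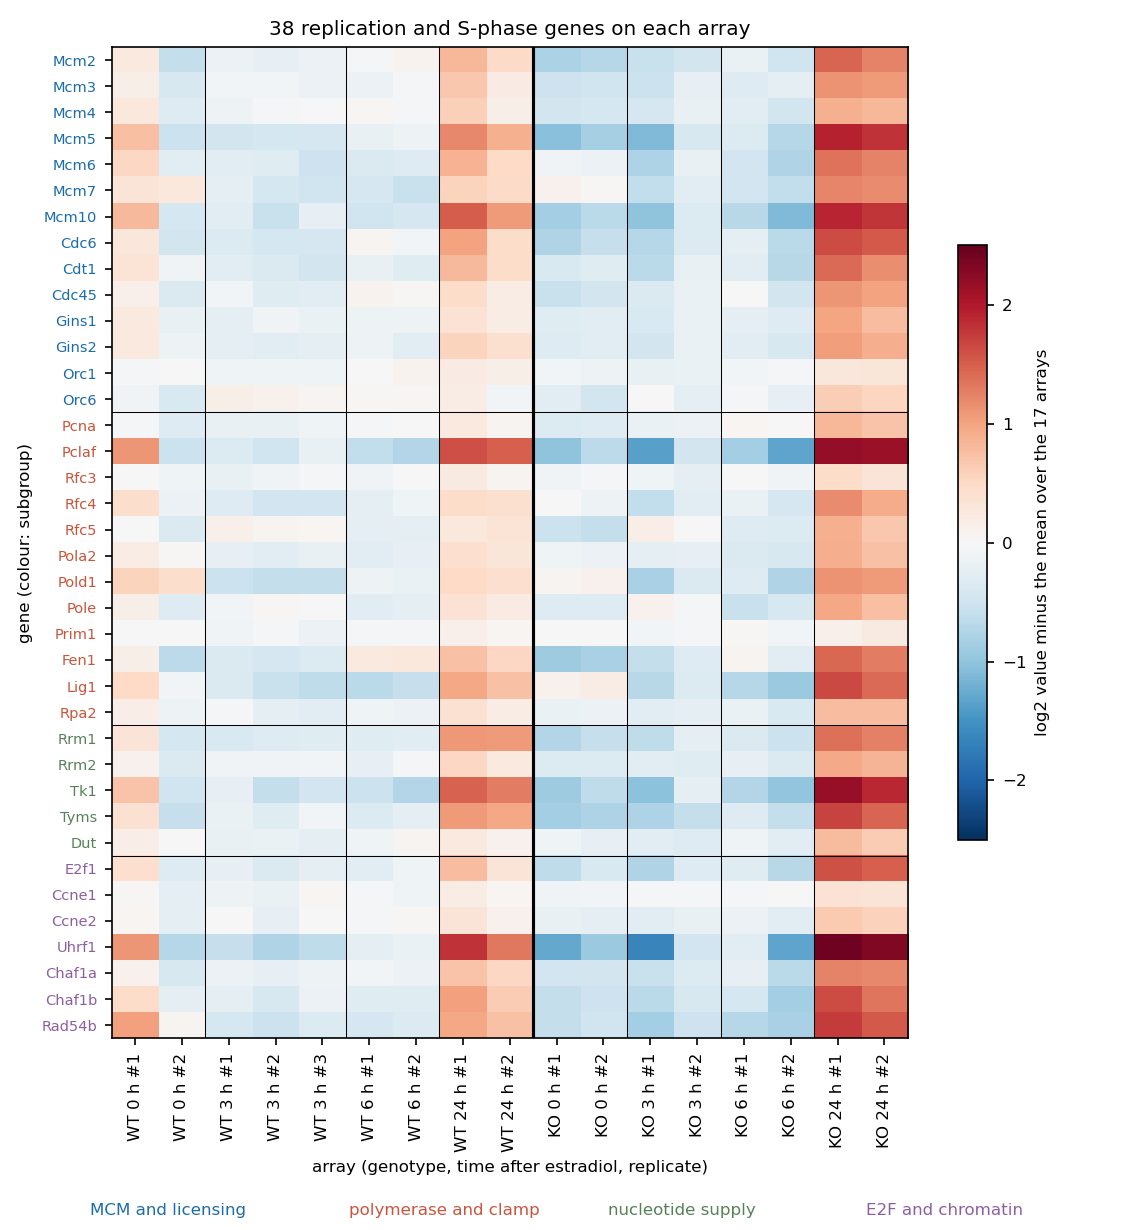
Heat map of the 38 genes (lines of the map, grouped and coloured by role) on the 17 arrays (columns), as log2 value minus the gene's mean over all arrays. Both KO 24 h columns are the darkest red, with averages of 1.21 and 1.09, followed by the WT 24 h columns at 0.69 and 0.46, and WT 0 h replicate 1 (0.32) differs from its partner (-0.27).

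In KO uterus at 24 h, all 38 genes rose against 0 h, by a median log2 change of 1.36 (median of all genes 0.00). Of them, 28 were at least 2-fold higher. Orc1 and Ccne1 were among the genes tested only through their levels at 24 h, as given below. Of all genes tested, 22.5% were called higher and 23.1% lower in this comparison (limma, Benjamini-Hochberg adjusted p below 0.05, the rule for every call below). Both KO 24 h arrays exceeded both KO 0 h arrays for 38 of 38, against 35.8% of all genes. In WT uterus, 23 of 38 rose and 0 fell, by a median of 0.45, against 18.9% of all genes called higher and 19% lower, and 6 were at least 2-fold higher. Against 6 h, 38 rose in KO (median 1.42, with 19.7% of all genes called higher and 18.6% lower) and 28 in WT (median 0.61, with 19.3% higher and 19% lower). The KO count was 37 or 38 whichever array was left out, and the call lost was Prim1. The WT count fell to 6 without WT 0 h replicate 2 and to 6 without WT 24 h replicate 1, and was 34 without WT 0 h replicate 1, and Rfc5, Fen1, Rrm1, Tyms and Chaf1a kept their call whichever array was left out. Against 6 h the WT count was 17 without WT 24 h replicate 1. A fit on the WT 0 and 24 h arrays alone called 2.

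Markers of other cell types moved as well. Adipocyte markers fell for 6 of 6 measured genes in KO at 24 h and for 5 of 6 in WT. Macrophage markers fell for 11 of 11 in KO (median -1.07) and for 0 of 11 in WT, and their average relative level was 1.07 on KO 0 h replicate 2 and between -0.51 and 0.40 on the other arrays. Granulocyte markers averaged 1.04 on that same array, and fell for 4 of 7 genes in KO and 0 in WT. Lymphocyte markers fell for 5 of 7 in KO, and in WT 1 rose and 0 fell. Endothelial markers fell for 8 of 10 in KO and for 8 of 10 in WT. Epithelial markers rose for 10 of 14 genes in WT at 24 h and fell for 0, and rose for 6 and fell for 3 in KO. Their part in the rise of the replication genes was not tested.

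**Figure D2:**
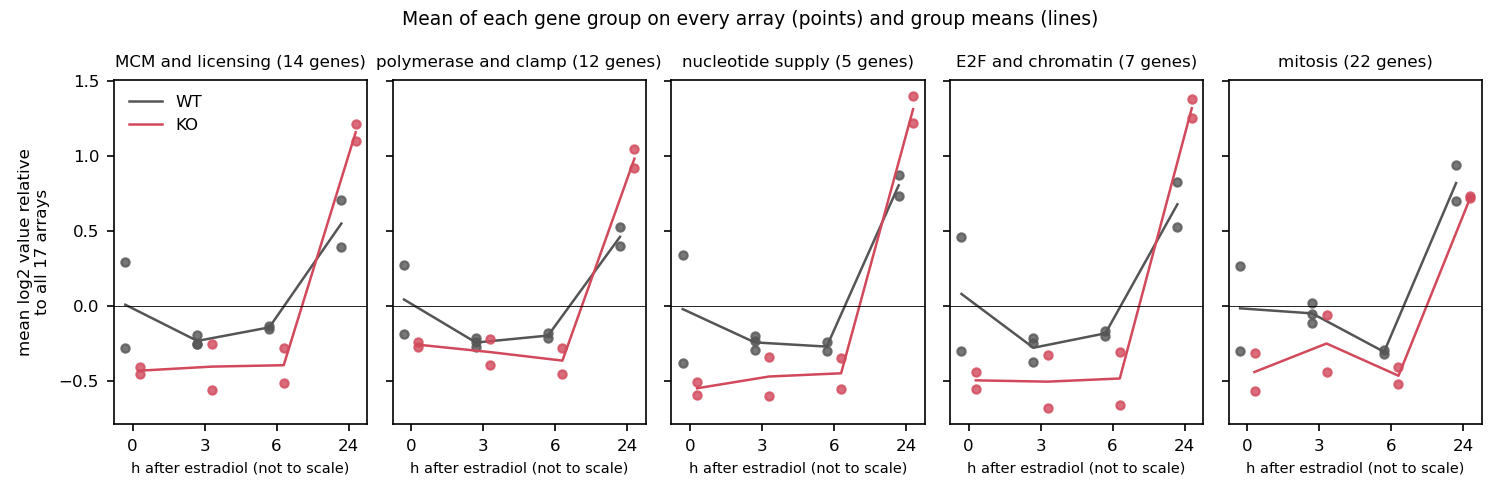
Mean log2 level of each role group, and of 22 mitosis genes, on every array (points, grey WT and red KO) and the group means (lines) against hours after estradiol, relative to all 17 arrays. The 4 replication groups are highest in KO at 24 h, at 1.21 and 1.10 for MCM and licensing against 0.70 and 0.39 in WT, while the mitosis genes stand at 0.73 and 0.72 in KO and 0.70 and 0.94 in WT.

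Among the MCM and licensing genes, 14 of 14 rose in KO at 24 h (median 1.49) and 8 of 14 in WT (median 0.47). The WT count was 13 without WT 0 h replicate 1, 1 without WT 0 h replicate 2 and 0 without WT 24 h replicate 1. Mcm5, a subunit of the MCM ring, read 9.93 and 10.15 in KO at 0 h, 9.88 and 10.57 at 3 h, 10.63 and 10.26 at 6 h, and 12.91 and 12.78 at 24 h. In WT it read 11.72 and 10.44 at 0 h, 10.52, 10.53 and 10.55 at 3 h, 10.80 and 10.84 at 6 h, and 12.18 and 11.87 at 24 h. Both 24 h groups lay above every earlier array of either genotype, and WT 0 h replicate 1 lay above all the other arrays taken before 24 h. The rise over 0 h was 2.80 ± 0.30 (SE) on the log2 scale in KO (6.96-fold, adjusted p = 4.69e-06) and 0.94 ± 0.30 in WT (adjusted p = 0.0244), the latter lost without WT 0 h replicate 2 or WT 24 h replicate 1.

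Mcm10, which helps the helicase start moving, read 8.51 and 8.68 in KO at 0 h and 11.27 and 11.14 at 24 h, a rise of 2.61 ± 0.31 (adjusted p = 9.7e-06). In WT it went from 10.16 and 8.92 to 10.87 and 10.42, a rise of 1.11 ± 0.31 (adjusted p = 0.0111). The WT 0 h arrays differ by more than the rise itself. Cdc6, the loading factor, went from 8.12 and 8.30 to 10.50 and 10.41 in KO, a rise of 2.25 ± 0.22 (adjusted p = 2.2e-06), and from 9.15 and 8.40 to 9.89 and 9.34 in WT, a rise of 0.83 ± 0.22 (adjusted p = 0.00809). Cdt1, its partner in loading, rose by 1.63 ± 0.18 in KO and by 0.51 ± 0.18 in WT. These WT calls of Mcm10, Cdc6 and Cdt1 were lost without WT 0 h replicate 2 and without WT 24 h replicate 1, and that of Cdt1 also without WT 3 h replicate 2 or either WT 6 h array.

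The other ring subunits and the helicase activators rose in KO as well. Mcm2 rose by 2.09 ± 0.20 in KO and 0.83 ± 0.20 in WT, and Mcm3 by 1.60 ± 0.16 and 0.56 ± 0.16. Mcm4, Mcm6 and Mcm7 rose in KO by 1.31 ± 0.16, 1.41 ± 0.22 and 1.13 ± 0.10, and in WT their changes of 0.40, 0.55 and 0.23 did not pass the test. Of the helicase activators, Cdc45 rose by 1.57 ± 0.16, Gins1 by 1.16 ± 0.12 and Gins2 by 1.27 ± 0.12 in KO. In WT only Gins2 of these activators passed, with 0.43 ± 0.12, while Cdc45 gave 0.43 ± 0.16 (adjusted p = 0.0505) and Gins1 0.25 ± 0.12 (adjusted p = 0.128). The origin recognition genes moved least of this group: Orc6 rose by 0.95 ± 0.11 in KO, and Orc1 by 0.40 ± 0.05. The Orc1 probe exceeded the array median on 5 of 17 arrays, all those at 24 h and WT 6 h replicate 2. Its testing itself thus depended on the 24 h groups.

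Of the polymerase and clamp genes, 12 of 12 rose in KO at 24 h (median 1.11) and 7 of 12 in WT (median 0.31). The WT count was 10 without WT 0 h replicate 1, 2 without WT 0 h replicate 2 and 2 without WT 24 h replicate 1. Pcna, the sliding clamp, read 8.41 and 8.43 in KO at 0 h, 8.59 and 8.61 at 3 h, 8.81 and 8.76 at 6 h and 9.58 and 9.46 at 24 h. In WT it read 8.73 and 8.43 at 0 h, 8.58, 8.57 and 8.66 at 3 h, 8.71 and 8.75 at 6 h and 9.0 and 8.83 at 24 h. The KO values do not overlap between any of the 4 times, and the WT 24 h arrays lie above the earlier WT arrays. The rise was 1.10 ± 0.09 in KO (adjusted p = 5.6e-07) and 0.33 ± 0.09 in WT (adjusted p = 0.00757). Pclaf, a PCNA-binding protein, had the largest change of this group, from 8.53 and 8.88 to 11.74 and 11.69 in KO, a rise of 3.01 ± 0.38 (8.06-fold, adjusted p = 1.88e-05). In WT Pclaf went from 10.65 and 9.01 to 11.14 and 11.03, a rise of 1.26 ± 0.38 (adjusted p = 0.0184), again with a wide gap between the 0 h arrays and a call lost without WT 0 h replicate 2 or either WT 24 h array.

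Fen1, the flap nuclease, and Lig1, the ligase that seals the pieces of the lagging strand, rose by 2.22 ± 0.19 and 1.38 ± 0.17 in KO and by 0.88 ± 0.19 and 0.64 ± 0.17 in WT. Pold1, the catalytic subunit of polymerase delta, read 10.50 and 10.54 in KO at 0 h and 11.55 and 11.49 at 24 h, a rise of 1.00 ± 0.13 (adjusted p = 2.81e-05). In WT it read 10.99 and 10.87 at 0 h and 10.94 and 10.86 at 24 h, a change of -0.03 with a 95% interval from -0.32 to 0.26. Pole, the catalytic subunit of polymerase epsilon, rose by 1.18 ± 0.12 in KO and 0.37 ± 0.12 in WT, and Pola2, a subunit of polymerase alpha, by 0.95 ± 0.07 and 0.26 ± 0.07. Of the clamp loader genes, Rfc5 rose in both (1.34 ± 0.10 and 0.47 ± 0.10), while Rfc4 and Rfc3 rose in KO by 1.12 ± 0.16 and 0.46 ± 0.08 and gave 0.28 and 0.19 in WT without passing. Rpa2, of the single-strand binding complex, rose by 0.92 ± 0.10 in KO. A second probe of Rpa2 that passed the filter gave -0.24 in KO and -0.28 in WT, so its probes disagree in sign. Dimmer probes of other members that passed also differed from the brightest one. In KO they gave 0.08 for each of those of Rfc5, 0.14 for Mcm4, 0.05 for Cdc6, 0.34 for Rfc4 and 0.32 for Dut. Those of Tk1 gave 0.05, 0.11 and 0.86, those of Tyms 0.20, 0.22 and 1.15, and those of Lig1 0.04, 0.55 and 0.66. The dimmest passing probe of Mcm6 gave 0.19. The next brightest probes of Mcm6, Mcm7, Rrm1 and Gins2 gave 1.78, 1.26, 1.75 and 1.29. Prim1, the primase catalytic subunit, had the smallest KO rise, 0.18 ± 0.06 (adjusted p = 0.017), and its probe exceeded the array median on 9 arrays.

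Nucleotide supply was the role group with the largest WT median. In WT 4 of 5 rose at 24 h (median 1.11), and in KO 5 of 5 (median 1.98). The WT count was 2 without WT 0 h replicate 2, 3 without WT 24 h replicate 1 and 4 without WT 0 h replicate 1. Tk1, cytosolic thymidine kinase, read 8.32 and 8.57 in KO at 0 h, 8.19 and 9.0 at 3 h, 8.48 and 8.23 at 6 h and 11.40 and 11.10 at 24 h. In WT it read 9.93 and 8.72 at 0 h, 9.01, 8.61 and 8.73 at 3 h, 8.68 and 8.49 at 6 h and 10.68 and 10.50 at 24 h. Its 24 h arrays lay above all earlier arrays of both genotypes. These values are of the brightest Tk1 probe, and the dimmer ones rose less in KO, as given above. The rise was 2.80 ± 0.31 in KO (6.98-fold, adjusted p = 5.91e-06) and 1.27 ± 0.31 in WT (2.41-fold, adjusted p = 0.00514), the WT call being lost without WT 0 h replicate 2.

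Rrm1, the large subunit of ribonucleotide reductase, went from 10.63 and 9.87 to 11.40 and 11.37 in WT, a rise of 1.14 ± 0.18 (adjusted p = 0.000214), the WT 24 h change with the lowest adjusted p of the 38. In KO it went from 9.58 and 9.74 to 11.70 and 11.58, a rise of 1.98 ± 0.18. Tyms, thymidylate synthase, rose by 1.11 ± 0.21 in WT (adjusted p = 0.000916) and 2.38 ± 0.21 in KO. These calls held in WT and in KO whichever array was left out. The dimmer probes of Tyms that passed the filter rose less in KO, as given above. Rrm2, the small reductase subunit, rose by 0.51 ± 0.12 and 1.24 ± 0.12 in WT and KO. Dut, which clears dUTP, rose in KO by 0.87 ± 0.09 and gave 0.10 with a 95% interval from -0.09 to 0.28 in WT.

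Of the E2F and chromatin genes, 7 of 7 rose in KO at 24 h (median 2.04) and 4 of 7 in WT (median 0.50). The WT count was 7 without WT 0 h replicate 1, 1 without WT 0 h replicate 2 and 1 without WT 24 h replicate 1. E2f1, the activating E2F factor, read 8.67 and 8.92 in KO at 0 h, 8.55 and 8.98 at 3 h, 9.0 and 8.59 at 6 h and 10.89 and 10.78 at 24 h. In WT it read 9.72 and 8.97 at 0 h, 9.09, 8.93 and 9.04 at 3 h, 9.02 and 9.18 at 6 h and 10.07 and 9.63 at 24 h. WT 24 h replicate 2 lies below WT 0 h replicate 1, so the WT groups overlap, and the KO 24 h arrays lie above all others. The KO rise was 2.04 ± 0.22 (4.11-fold, adjusted p = 4.3e-06), and the WT change of 0.50 ± 0.22 did not pass (adjusted p = 0.0882).

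Uhrf1, which recruits the maintenance DNA methyltransferase to newly copied DNA, changed most of all 38. In KO it read 9.59 and 9.96 at 0 h, 9.23 and 10.40 at 3 h, 10.59 and 9.56 at 6 h and 13.31 and 13.20 at 24 h, a rise of 3.48 ± 0.48 (11.1-fold, adjusted p = 3.48e-05). In WT it read 11.98 and 10.17 at 0 h, 10.30, 10.13 and 10.25 at 3 h, 10.66 and 10.72 at 6 h and 12.68 and 12.20 at 24 h, a rise of 1.36 ± 0.48 (adjusted p = 0.036). The gap of 1.81 between its WT 0 h arrays is larger than that rise, and the WT call was lost without WT 0 h replicate 2 and without either WT 24 h array. The chromatin assembly genes Chaf1a and Chaf1b rose by 1.68 ± 0.15 and 2.04 ± 0.20 in KO and 0.77 ± 0.15 and 0.72 ± 0.20 in WT. Of the cyclins that drive S-phase entry, Ccne2 rose by 0.83 ± 0.10 in KO and 0.31 ± 0.10 in WT. Ccne1 rose by 0.42 ± 0.08 in KO. Its probe lay above the array median on 3 arrays, both KO 24 h arrays and WT 24 h replicate 1, so that its testing itself depended on those groups. Rad54b, a recombination repair gene, read 8.69 and 8.77 in KO at 0 h and 11.02 and 10.81 at 24 h (2.19 ± 0.21), and 10.31 and 9.34 in WT at 0 h with a mean of 10.12 ± 0.17 (SD, n = 2) at 24 h (a change of 0.30 ± 0.21 by limma, adjusted p = 0.331).

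The genes with an E2F word in the stretches printed above spread over the whole range of responses. Their KO rises at 24 h were 3.48 for Uhrf1, 2.80 for Mcm5, 2.25 for Cdc6, 1.41 for Mcm6, 1.13 for Mcm7, 0.46 for Rfc3 and 0.40 for Orc1. The list thus holds both the gene that changed most and members of the lower end.

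**Figure D3:**
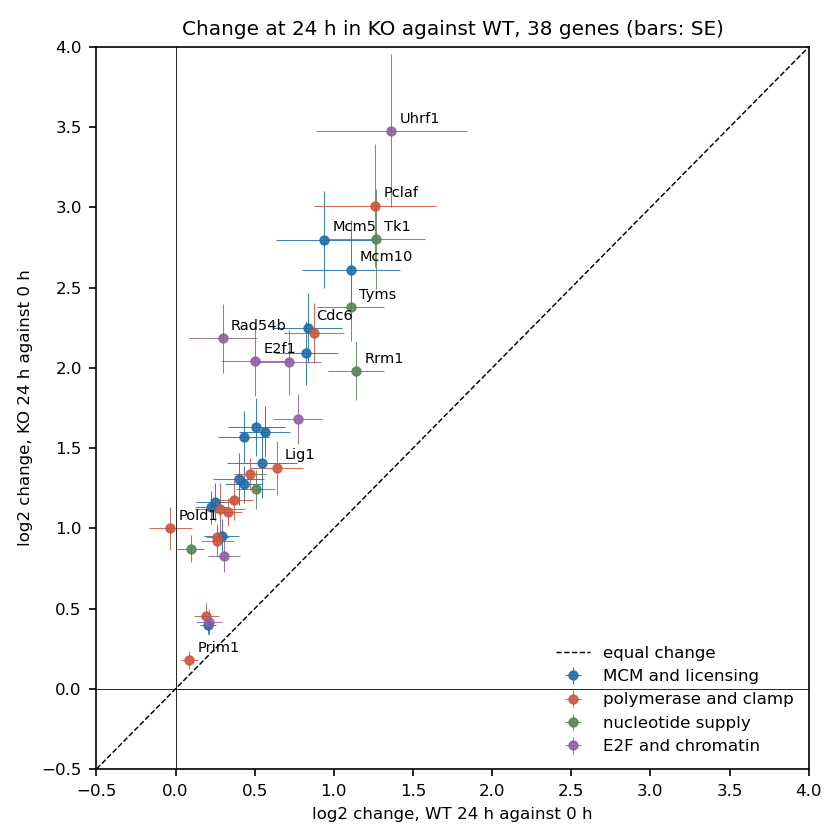
Log2 change at 24 h against 0 h in WT (horizontal axis) and KO (vertical axis) for the 38 genes, with SE bars, coloured by role, and a dashed line of equal change. All 38 points lie above the line, from Prim1 (0.09 and 0.18) to Uhrf1 (1.36 and 3.48), and Pold1 lies near 0 on the WT axis (-0.03).

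Before 24 h the genes did not move as a block. In WT at 3 h, 2 rose and 9 fell (median -0.23), against 22.2% and 24.5% of all genes, and at 6 h, 1 rose and 5 fell (median -0.16), against 21.9% and 22.1%. In KO at 3 h, 2 rose and 3 fell (median 0.02), against 19% and 21.4%, and at 6 h, 2 rose and 4 fell (median 0.01), against 21.8% and 23%. These counts are near or below the background. Without WT 0 h replicate 1 the WT medians turned to 0.07 and 0.06, and without WT 0 h replicate 2 the WT counts were 24 and 21, all lower. In KO the count at 3 h was 3 without KO 3 h replicate 1 and 8 without KO 3 h replicate 2, and it was 9 at 3 h and 11 at 6 h without either WT 0 h array, which enter only through the shared spread.

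A small set moved in both genotypes, whose early comparisons share no array. Such an overlap is common here: of all genes called lower in WT at 3 h, 73.3% were also called lower in KO, and 84% of those of KO in WT, with 82.6% and 79.2% at 6 h. Lig1, Mcm7 and Pold1 fell at 3 h in both, which is 3 of 9 genes that fell in WT and 3 of 3 in KO. Lig1, Mcm7, Pold1 and Pola2 fell at 6 h in both, 4 of 5 in WT and 4 of 4 in KO, with Pola2 in KO lost without KO 0 h replicate 1 or KO 6 h replicate 2. Pold1 read 10.99 and 10.87 in WT at 0 h, 9.89, 9.84 and 9.84 at 3 h and 10.30 and 10.26 at 6 h, a fall of 1.07 ± 0.12 at 3 h (adjusted p = 5.61e-06) and 0.65 ± 0.13 at 6 h. In KO it read 10.50 and 10.54, then 9.61 and 10.06, then 10.11 and 9.67, falls of 0.68 ± 0.13 and 0.63 ± 0.13. No early array overlapped the 0 h arrays of its genotype.

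Lig1 read 10.33 and 9.76 in WT at 0 h and 9.16 and 9.26 at 6 h, and 9.94 and 10.02 in KO at 0 h and 9.12 and 8.90 at 6 h. It fell by 0.83 ± 0.17 and 0.97 ± 0.17, and at 24 h stood above its 0 h level at 10.80 and 10.56 in WT and 11.48 and 11.24 in KO. Mcm7 read 9.67 and 9.63 in WT at 0 h, 9.11, 8.91 and 8.86 at 3 h and 8.93 and 8.80 at 6 h, and 9.47 and 9.38 in KO at 0 h, 8.74 and 9.07 at 3 h and 8.87 and 8.74 at 6 h. Its falls at 6 h were 0.78 ± 0.10 and 0.62 ± 0.10. Mcm7 and Pold1 thus dipped and recovered in both genotypes, while in WT Pold1 only came back to its 0 h level by 24 h. These calls of Mcm7 and Pold1 held in both genotypes whichever array was left out, as did those of Lig1 except in KO at 3 h without KO 3 h replicate 1.

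Few genes rose early. Rfc5 rose at 3 h in both, by 0.26 ± 0.09 in WT (adjusted p = 0.0331), a call lost without WT 0 h replicate 2 or any WT 3 h array, and by 0.65 ± 0.10 in KO, where it held in every such fit. Its KO mean was 9.28 ± 0.04 (SD, n = 2) at 0 h, 9.92 ± 0.10 at 3 h and 9.50 ± 0.02 at 6 h, a peak at 3 h before the 24 h rise. Fen1 rose at 6 h in both, by 0.51 ± 0.19 in WT (adjusted p = 0.0416, lost in 10 of the 17 fits that left out an array) and by 0.75 ± 0.19 in KO (adjusted p = 0.00425, lost without KO 6 h replicate 1). Pcna rose in KO at 6 h by 0.36 ± 0.09, held in every such fit, Pole in KO at 3 h by 0.36 ± 0.12, lost without KO 3 h replicate 1 or either KO 0 h array, and Orc6 in WT at 3 h by 0.34 ± 0.10, lost without WT 0 h replicate 2. Among the genes called in WT and not in KO, Rad54b fell by 0.99 ± 0.20 at 3 h and 0.94 ± 0.21 at 6 h in every such fit, and the falls of Cdt1, Gins2, Rfc4 and Dut at 3 h were lost without WT 0 h replicate 1. Whether KO and WT differed in these early changes was tested by the interaction below.

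**Figure D4:**
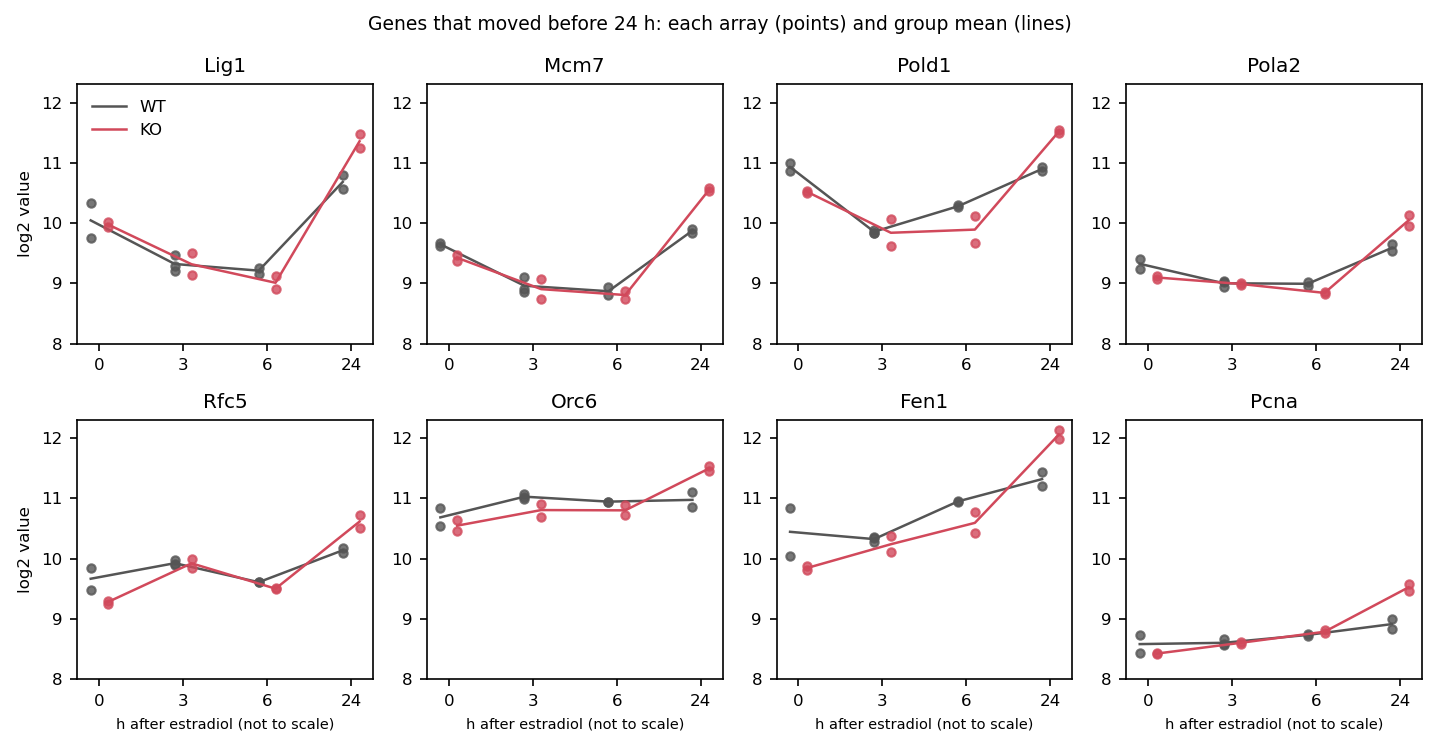
Log2 values of 8 genes that were called at 3 or 6 h, on every array (points, grey WT and red KO) with group means (lines), against hours after estradiol. Lig1, Mcm7 and Pold1 dip at 3 and 6 h in both genotypes, with Pold1 at 9.89, 9.84 and 9.84 in WT at 3 h from 10.99 and 10.87 at 0 h, and Rfc5 in KO stands higher at 3 h (mean 9.92) than at 0 and 6 h and below its 24 h arrays.

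Compared at the same time, KO and WT differed at 24 h above all. There 24 of 38 genes were higher in KO and 0 lower, with a median log2 difference of 0.61, while 4.08% of all genes were called higher and 4.27% lower. All 38 had both KO arrays above both WT arrays, against 29.9% of all genes. No member differed by as much as 2-fold. The count was 4 without KO 24 h replicate 1, 8 without KO 24 h replicate 2, 15 without WT 24 h replicate 1 and 4 without WT 24 h replicate 2, with medians from 0.50 to 0.69. Mcm7, Pcna, Pola2 and Dut kept their call whichever array was left out.

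By role, 9 of 14 MCM and licensing genes were higher (median 0.63), 9 of 12 polymerase and clamp genes (0.59), 2 of 5 nucleotide supply genes (0.55) and 4 of 7 E2F and chromatin genes (0.66). Without KO 24 h replicate 1 these counts were 1, 2, 1 and 0. E2f1 had the largest difference, 10.89 and 10.78 in KO against 10.07 and 9.63 in WT, 0.99 ± 0.22 (1.98-fold, adjusted p = 0.0132). Pcna, at 9.58 and 9.46 against 9.0 and 8.83, differed by 0.61 ± 0.09 (1.53-fold, adjusted p = 0.000949), the lowest adjusted p of the 38. Mcm7, at 10.58 and 10.53 against 9.91 and 9.84, differed by 0.68 ± 0.10 (adjusted p = 0.00139), and Dut, at 9.63 and 9.47 against 9.08 and 8.94, by 0.55 ± 0.09 (adjusted p = 0.00189). Cdc6, Cdc45, Fen1 and Rad54b were higher by 0.84 ± 0.22, 0.74 ± 0.16, 0.74 ± 0.19 and 0.79 ± 0.21.

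Several genes with large rises over time did not pass between genotypes. Uhrf1 gave 0.81 ± 0.48 (95% interval from -0.21 to 1.84), Pclaf 0.63 ± 0.38 (-0.20 to 1.45), Tk1 0.66 ± 0.31 (-0.01 to 1.33) and Mcm10 0.56 ± 0.31 (-0.11 to 1.22). For these the limits include both no difference and a difference of more than 2-fold. Rrm1 gave 0.25 ± 0.18 (-0.13 to 0.64), at 11.70 and 11.58 against 11.40 and 11.37. Prim1, Orc1 and Ccne1 gave 0.09, 0.12 and 0.22 and did not pass.

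**Figure D5:**
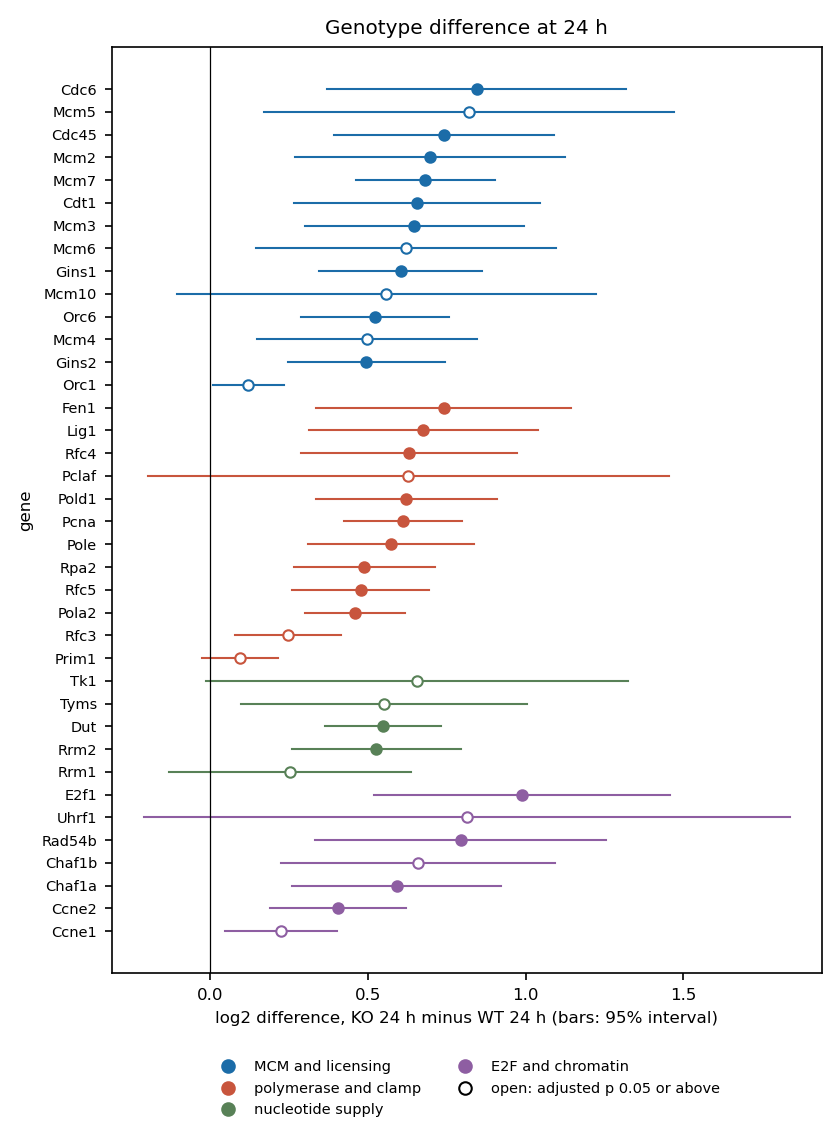
Log2 difference between KO and WT at 24 h for each of the 38 genes (points) with 95% intervals (bars), ordered by role and size, filled where the adjusted p is below 0.05. All points lie above 0, from 0.09 for Prim1 to 0.99 for E2f1, and the intervals of Uhrf1 (-0.21 to 1.84) and Pclaf (-0.20 to 1.45) are the widest.

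At 0 h, 2 genes were lower in KO, Rad54b by 1.09 ± 0.21 (adjusted p = 0.0111) and Rfc5 by 0.39 ± 0.10 (adjusted p = 0.0458), against 2.24% of all genes called higher and 2.19% lower. At an unadjusted p under 0.05, 24 of the 38 genes differed, against 18.4% of all genes. The median was -0.37, and 27 genes had both KO arrays below both WT arrays, against 22.5% of all genes. That count of calls was 26 without WT 0 h replicate 2, 1 without WT 0 h replicate 1 and 0 without either KO 0 h array. At 3 h limma called 0 genes (2 at an unadjusted p under 0.05, which 18.7% of all genes reached, lowest adjusted p 0.172), against 2.16% of all genes higher and 2.07% lower. At 6 h it called 0 (2 unadjusted, against 11.8% of all genes, lowest adjusted p 0.246), against 0.271% and 0.36%. Their medians were -0.11 and -0.20, and at 6 h 29 genes had both KO arrays below both WT arrays, against 23.6% of all genes. Before E2, markers of some other cell types stood higher in KO, each above 0. The median was 0.60 for 11 macrophage markers (1 called), 0.85 for 6 adipocyte markers (0 called) and 0.41 for 7 lymphocyte markers (1 called). On KO 0 h replicates 1 and 2, macrophage markers averaged 0.24 and 1.07 and lymphocyte markers -0.02 and 0.32. In WT at 0 h these averages were 0.03 and 0.05 for macrophage and -0.17 and -0.16 for lymphocyte markers. Their part in the 0 h differences was not tested.

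The interaction, the KO change over time minus the WT change, asks whether the genotypes responded differently. It shares its arrays with the comparisons above. At 24 h against 0 h it was above 0 for all 38 genes, passed for 27 and was called lower for 0, with a median of 0.91, while 4.12% of all genes were called higher and 3.15% lower. Rad54b gave 1.89 ± 0.30 (adjusted p = 0.00405), Mcm5 1.86 ± 0.43 (adjusted p = 0.0205), E2f1 1.54 ± 0.31 (adjusted p = 0.0114), Cdc6 1.42 ± 0.31 and Fen1 1.34 ± 0.27. Pold1, at -0.03 over 24 h in WT, gave 1.03 ± 0.19 (adjusted p = 0.00758). Uhrf1 had the largest value, 2.11 ± 0.67, and did not pass (adjusted p = 0.0745). The count was 34 without WT 0 h replicate 2, 17 without WT 0 h replicate 1, 14 without KO 0 h replicate 2, 12 and 16 without KO 24 h replicate 1 and 2, and 9 without WT 24 h replicate 2. Mcm7, Gins1, Gins2, Pcna, Rfc5, Pola2, Pold1, Dut and Rad54b passed whichever array was left out. In the same comparison, 11 of 11 macrophage markers were below 0 (3 called lower, median -1.03), as were 6 of 6 adipocyte markers (0 called, median -0.81) and 7 of 7 lymphocyte markers (1 called, median -0.49), and 5 of 14 epithelial markers were called lower (median -0.21). KO 0 h replicate 2, with the highest macrophage and lymphocyte averages of all arrays, enters these values. The part of these markers in the interaction of the replication genes was not tested.

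Since the 0 h arrays of WT differ so much, the interaction was also taken from 6 to 24 h, which uses no 0 h array in the difference itself. It passed for 16 of 38 genes, all higher, with a median of 0.81, against 1.25% of all genes called higher and 1.46% lower. Dut (0.71 ± 0.12, adjusted p = 0.0101), Pola2 (0.61 ± 0.10, adjusted p = 0.0101) and Pold1 (1.01 ± 0.19, adjusted p = 0.0145) had the lowest adjusted p. The count ran from 1 without WT 6 h replicate 2 to 28 without 1 or the other WT 0 h array, no gene kept its call in all 17 of these fits, and the medians stayed between 0.70 and 0.92. At 3 h and 6 h against 0 h limma called 0 interactions (lowest adjusted p 0.192 and 0.394). Of all genes, 0.604% were called higher and 0.489% lower at 3 h, and 0.197% and 0.204% at 6 h. At an unadjusted p under 0.05, 4 and 1 of the 38 differed, which 13.7% and 11.1% of all genes reached. The medians at 3 h and 6 h were 0.47 and 0.37 without WT 0 h replicate 2. Without WT 0 h replicate 1 they were 0.00 and -0.08.

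Genes of the next cell cycle stage gave other values. Of 22 measured mitosis genes, 16 rose in WT at 24 h (median 1.00) and 17 in KO (median 1.30). The WT count was 17 and 12 without WT 0 h replicate 1 and 2. Between KO and WT at 24 h, 0 were called higher and 0 lower by limma, with a median of -0.11, and at the interaction 0 were called, with a median of 0.14, or 7 without WT 0 h replicate 2. Cdk1, the mitotic kinase, gave 0.16 ± 0.25 between genotypes (95% interval from -0.38 to 0.70), Top2a 0.26 ± 0.33 and Plk1 -0.54 ± 0.30. The intervals are wide, and the difference between the replication and the mitosis genes was not itself tested. Of 14 epithelial markers, 0 were higher in KO at 24 h and 2 lower, Cdh1 by 0.65 ± 0.07 and Epcam by 0.24 ± 0.05, with a median of -0.26, and their average relative level was 0.60 and 0.60 in WT and 0.38 and 0.27 in KO. The higher replication genes of KO at 24 h thus came with epithelial markers that were not higher, and the part of either in the other was not tested.

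A wider list of other replication genes, of which 67 of 76 were measured, gave 48 higher and 10 lower in KO at 24 h (median 0.53) and 25 higher and 8 lower in WT (median 0.15). The WT rises numbered 35 without WT 0 h replicate 1, 7 without WT 0 h replicate 2 and 8 without WT 24 h replicate 1. KO exceeded WT at 24 h for 23 and was below it for 0 (median 0.26), and the interaction passed for 26, all higher (median 0.37). Leaving out each WT 0 h, WT 24 h and KO 24 h array in turn, the first count fell to 3 (KO 24 h replicate 1 or WT 24 h replicate 2), and the second to 8 (WT 24 h replicate 2) and rose to 37, with 2 lower (WT 0 h replicate 2). Clspn, the checkpoint adaptor at the fork, rose by 2.32 ± 0.24 in KO and 0.77 ± 0.24 in WT, Ung, which removes uracil from DNA, by 2.20 ± 0.20 and 0.60 ± 0.20, and Esco2, which links sister chromatids, by 1.84 ± 0.20 and 0.55 ± 0.20. Dnmt1, the maintenance methyltransferase, rose by 1.72 ± 0.17 in KO. Dbf4, the regulatory subunit of the kinase that fires origins, rose by 1.28 ± 0.13 in KO and 1.13 ± 0.13 in WT.

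Among the genes of that list that fell at 24 h were the forms of nucleotide enzymes that work outside S phase. Tk2, the mitochondrial thymidine kinase, fell by 1.33 ± 0.12 in KO and 0.85 ± 0.12 in WT. Rrm2b, the p53-induced reductase subunit, fell by 1.19 ± 0.10 and 0.81 ± 0.10. Their S-phase counterparts Tk1 and Rrm2 rose. The E2F partner genes moved in opposite directions from 3 h on: Tfdp1 rose by 0.93 ± 0.14 in WT and 0.89 ± 0.15 in KO, while Tfdp2 fell by 1.17 ± 0.10 and 1.03 ± 0.11. E2f6, a repressor E2F, rose at 3 h by 1.03 ± 0.07 in WT and 1.33 ± 0.08 in KO. These regulators thus changed before 24 h in both genotypes. They are examples picked from their list after their values were seen. At 3 h, 22.2% of all genes were called higher and 24.5% lower in WT, and 19% and 21.4% in KO. Most genes called at 3 h in either genotype were called in the same direction in the other.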

How the data were processed

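Uterine total RNA was measured on 17 arrays. BeadStudio (version not stated) is named in the submitters' processing notes. As deposited, the table is on a log2 scale from 7.39 to 15.94, already quantile normalized by the authors, since its sorted columns are identical (median 8.2). Not given in the sources used here are background correction and log offset, and a floor set by them could compress dim probes. For arrays no depth applies, and their number limits the precision.

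The platform annotation listed 34903 of 45281 probes, 18 of them with several symbols, and 34807 matched RefSeq (GRCm38) by Entrez number. Probes above the array median on at least 2 arrays were kept, and the brightest stood for its gene, leaving 14737 genes. Groups came from the array labels. A mean for each of 8 groups was fitted to all 17 arrays with limma 3.58.1 (R 4.3.3, empirical Bayes, 9 residual and 4.56 prior degrees of freedom). Tests were two-sided, and p-values were Benjamini-Hochberg adjusted over all genes within each of 16 comparisons, with a threshold of 0.05. The code was tested on simulated data. The members, lists, motifs and tests were chosen with earlier results of these data known. Members were named by their role, with all 38 accounted for, and other replication and mitosis genes as examples of their lists chosen after their values were seen. Probe choice, filter, prior, array weights, normalization, groups fitted, replicate blocks and left-out arrays were varied. Promoter sequences are RefSeq's, of GRCm38.p6. Of 37 member starts 22 equal the RefSeq gene boundary. For 6 members no promoter was used here.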

Additional observations from a re-analysis of the deposited data

Results flagged for a closer look

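The responses of KO and WT differed by the interaction test for 27 of the 38 genes between 0 and 24 h, with the KO rise larger in each case (limma, adjusted p below 0.05). Among the MCM and licensing genes the log2 difference of responses was 1.86 for Mcm5, 1.42 for Cdc6, 1.27 for Mcm2, 1.14 for Cdc45, 1.12 for Cdt1, 1.04 for Mcm3, 0.91 for Mcm4, Mcm7 and Gins1, 0.84 for Gins2 and 0.66 for Orc6. Among the polymerase and clamp genes it was 1.34 for Fen1, 1.03 for Pold1, 0.87 for Rfc5, 0.84 for Rfc4, 0.81 for Pole, 0.77 for Pcna, 0.68 for Pola2 and 0.66 for Rpa2. Of the nucleotide supply genes, Tyms gave 1.27, Dut 0.78 and Rrm2 0.74, and of the E2F and chromatin genes, Rad54b gave 1.89, E2f1 1.54, Chaf1b 1.32, Chaf1a 0.91 and Ccne2 0.52.

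Between 6 and 24 h the responses differed for 16 genes, again with the larger rise in KO. E2f1 and Cdc6 gave 1.29, Fen1 1.10, Cdc45 1.02, Pold1 1.01, Chaf1a 0.91, Pole 0.79, Gins1 0.75, Mcm7 0.74, Dut 0.71, Orc6 0.67, Rpa2 0.64, Ccne2 and Pola2 0.61, Rfc5 0.58 and Pcna 0.56. The counts of both interactions depend on single arrays, as given with the comparisons.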

How the results depend on the processing

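Each of the 16 counts of called members was recomputed under other settings and without each array. Of the counts without an array, only those of KO at 24 h, against 0 h and against 6 h, always kept within 1.5 times their value. In the comparisons that involve 24 h, no called member changed direction under any of these settings. For the earlier comparisons the direction of single members was not checked. With array weights the count was 7 for WT at 3 h (11 otherwise), 1 for KO against WT at 0 h (2 otherwise) and 29 for the 6 to 24 h interaction (16 otherwise). With only the compared groups in the fit it was 2 for WT at 24 h (23), 11 for KO at 6 h (6), 0 and 2 for KO against WT at 0 and 3 h (2 and 0), 12 for the 24 h interaction (27) and 31 for the 6 to 24 h interaction. Averaging a gene's probes, or an intensity trend, gave 1 at 0 h. A fit without any 0 h array, added after the data were seen, gave 1 for KO against WT at 3 h and 27 for the 6 to 24 h interaction. The cause was not tested.

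The labels do not say whether replicate numbers pair the arrays. Over 56 pairs of same-numbered arrays the correlation of deviations from group means ran from -0.195 to 0.305, with 11 above 0.1. In a group of 2 arrays the deviations mirror each other, so these pairs are not independent. The range thus cannot decide whether the arrays are paired. The replicate block by number gave 27 for WT at 24 h, 38 for KO at 24 h, 25 for KO against WT at 24 h, 27 for the 24 h interaction and 13 for the 6 to 24 h one. The replicate block by title letter gave 12 for WT at 6 h (6 otherwise), 4 for KO against WT at 0 h, and 22 for the 6 to 24 h interaction.

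Without each array in turn, the counts ranged from 8 to 24 for WT at 3 h, 5 to 21 at 6 h and 6 to 34 at 24 h, from 3 to 9, 5 to 11 and 37 to 38 for KO, and from 17 to 32 (WT) and 37 to 38 (KO) for 24 against 6 h. KO against WT ranged from 0 to 26 at 0 h, 0 to 1 at 3 h and at 6 h, and 4 to 29 at 24 h, and the interactions from 0 to 10, 0 to 6, 9 to 34 and, from 6 h, 1 to 28. A group left with 1 array is assumed to vary like the others. Requiring a probe above the median on all 17 arrays left 29 members.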
